A study of Saccharomyces cerevisiae with 21 samples.

Results

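The cytosolic ribosomal protein genes of Saccharomyces cerevisiae, baker's yeast, were followed through 21 RNA sequencing libraries. They were taken as every gene whose symbol is RPL or RPS plus a number, with or without A or B, together with the stalk genes RPP0, RPP1A, RPP1B, RPP2A and RPP2B. This gave 137 of the 7123 features with values: 76 RPL genes of the large subunit, 56 RPS genes of the small subunit and 5 stalk genes. The RPL and RPS genes form 57 pairs of paralogs, 33 in the large and 24 in the small subunit, and 18 genes have a single copy. By its title the study concerns mutants that affect how phosphate genes are transcribed.

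In series 1 there were 3 cultures each of BY4741, a haploid laboratory strain of mating type a, of BY4741ΔP (ΔP below) and of Tpho84-Tcyc1. In series 2 there were 2 of BY4741, 3 each of BY4741ΔU (ΔU below) and ume6Δ, and 2 each of pho4Δ and pho84Δ. What was altered in Tpho84-Tcyc1, ΔU and ΔP is not spelled out in the labels. BY4741 cultures 1 to 3 were assigned to series 1, and 4 and 5 to series 2, by their numbering together with the design text. All cultures grew at 30 °C in a synthetic medium with 7.2 mM phosphate and 50 mM KCl, from an absorbance of 0.1 to one of 0.5 at harvest. The cultures of a strain were started from 1 overnight culture, so the spread between them is that between cultures and not between separately made strains. Values are RPM, reads per 1000000 reads of a library, from libraries of 10.98 to 49.8 megareads. UME6 had 0 to 4 reads in the 3 ume6Δ libraries and PHO4 had 1 and 2 reads in the 2 pho4Δ libraries. PHO84 had 2 reads in each pho84Δ library, and 27 to 40 reads in the 3 libraries of Tpho84-Tcyc1. Within ume6Δ, PHO84 stood at 8.41 RPM in library 1 and at 83.8 and 89.8 RPM in libraries 2 and 3, so that library 1 stood apart there.

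The ribosome reads messenger RNA in its small subunit and joins amino acids in its large subunit, and the stalk of P proteins on the large subunit recruits translation factors. Yeast makes its ribosomal proteins at very high rates in growing cells, and most of them are encoded by a pair of genes left from an ancient duplication of the genome. Their promoters are bound by Rap1, Fhl1 and Ifh1 or, at a minority, by Abf1, and the genes are turned down together when growth slows or stress is met. Most members keep an intron, which is rare in this yeast: 89 of the 137 had one inside the coding part in the R64 annotation.

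Together the 137 genes took 16.1% to 27.2% of all reads in a library. In BY4741 of series 1 they took 25.0%, 24.5% and 24.4%, and in BY4741 of series 2 they took 21.5% and 21.7%. The ΔU libraries held 19.2%, 16.1% and 16.9%, and libraries 2 and 3 of ΔU were the lowest of the study. The ume6Δ libraries held 20.4%, 18.7% and 17.8%, the pho84Δ libraries 19.1% and 19.4%, and the pho4Δ libraries 21.1% and 20.6%. In series 1 the Tpho84-Tcyc1 libraries held 22.7%, 24.0% and 23.6%. The ΔP libraries were spread most, with 21.4%, 27.2% and 20.1%. The groups ΔU, ume6Δ, pho4Δ and pho84Δ thus all lay below the 2 BY4741 libraries of their series, and library 2 of ΔP lay above every other library of the study. These are shares of reads, so fewer ribosomal protein transcripts per cell and more of other transcripts cannot be told apart.

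The balance of the subunits varied little, with large over small subunit reads between 1.14 and 1.22 in all 21 libraries. Large over small subunit reads gave a ratio of 1.17 ± 0.00920 in BY4741 of series 1 (SD, n = 3) and 1.15 ± 0.0278 in BY4741 of series 2 (n = 2). It was 1.18 ± 0.00924 in ΔU (n = 3), 1.22 ± 0.00812 in ume6Δ (n = 3), 1.15 ± 0.00851 in pho4Δ (n = 2) and 1.16 ± 0.00909 in pho84Δ (n = 2). The 3 ume6Δ libraries, at 1.22, 1.22 and 1.21, lay above every other library of series 2. That rests on the 5 members that lie on chromosome IX, 4 of them of the large subunit. Without these 5 genes, an alternative chosen after seeing the data, the ratio was 1.11 ± 0.00904 in ume6Δ, 1.10 ± 0.0294 in BY4741 of series 2 and 1.13 ± 0.00755 in ΔU, and the ume6Δ libraries lay between those of BY4741. In series 1 the ratio with all members was 1.16 ± 0.0108 in Tpho84-Tcyc1 (n = 3) and 1.18 ± 0.0419 in ΔP (n = 3), whose library 1 reached 1.22.

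**Figure D1:**
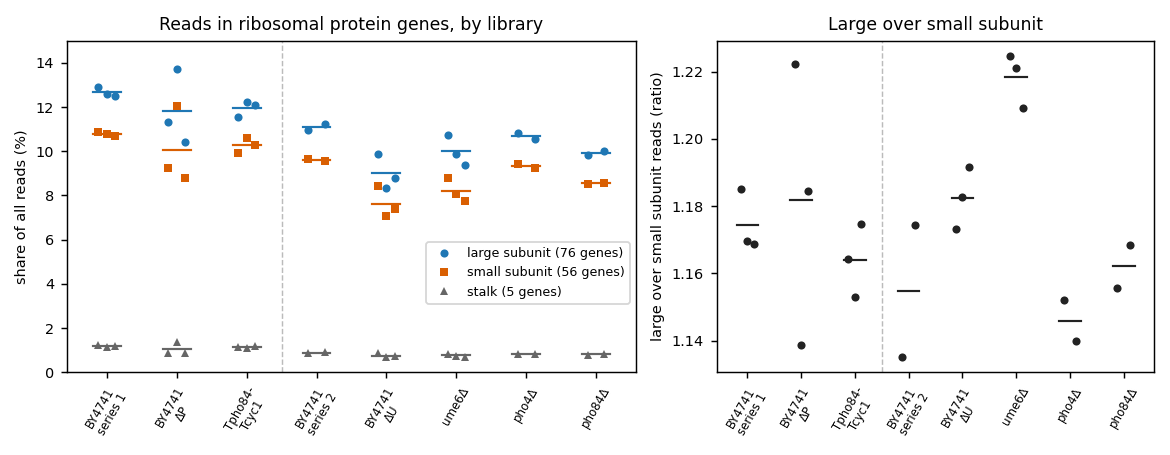
Share of all reads (%, left) in the large subunit, small subunit and stalk genes, and the ratio of large to small subunit reads (right), for each library of the 8 strain groups; points are libraries, bars are group means and the dashed line separates the 2 series. The large and small subunit shares are lowest in ΔU, where the members together took 16.1% to 19.2% of reads, and the ratio, over all members, is highest in ume6Δ (group mean 1.22, or 1.11 without the 5 members on chromosome IX).

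Single members differed widely in level. RPL3, which encodes a core protein of the large subunit, was highest by reads with a mean of 6904 RPM over all libraries. RPS31, whose product is made as a fusion of ubiquitin and a small subunit protein, had 5741 RPM, and RPS12 with 4369 RPM and RPS2 with 4034 RPM were also among the highest. Per kilobase of coding sequence RPS31 led, at 12507 RPM per kilobase against 5932 for RPL3. At the other end stood RPS14B with 178 RPM, RPS30B with 161 RPM, RPL22B with 136 RPM, RPS29A with 127 RPM and RPL15B with 63.1 RPM, each the minor member of its pair on average. All 137 members passed the filter on low values in both series.

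In ΔU the ribosomal protein genes were lower than in BY4741 of series 2. With a limma test across 5840 features, 83 of 137 members fell and 3 rose, where 13.2% of all features were lower and 36.5% were higher. The median log2 difference was -0.29 for the members and 0.15 for all features, and 126 of the 137 differences were negative. The large subunit gave 44 falls and 2 rises among 76 genes (median -0.28), the small subunit 38 falls and 1 rise among 56 (median -0.30), and the stalk 1 fall among 5. Among the same libraries 24 stress genes summed to 4771, 5870 and 6098 RPM in ΔU and to 3362 and 2792 RPM in BY4741, and their part in the ribosomal protein values was not tested.

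RPS28B, encoding a small subunit protein, fell most in ΔU. It stood at 744, 650 and 744 RPM in ΔU against 1311 and 1238 RPM in BY4741, a log2 difference of -0.84 (SE 0.08, adjusted p = 2.89e-06, limma). With BY4741 of series 1 as the control its call was lost (adjusted p = 0.0563, limma). RPL9A, a large subunit gene, stood at 1519, 1272 and 1312 RPM against 2534 and 1907 RPM (-0.69, SE 0.11, adjusted p = 0.000215, limma). RPL12A, whose product lies at the base of the stalk, fell from 1860 ± 90.5 to 1210 ± 91.0 RPM (-0.62, adjusted p = 3.07e-05, limma). RPS2, encoding a protein at the entry of the messenger RNA channel, fell from 4268 ± 319 to 2874 ± 118 RPM (-0.57, adjusted p = 3.7e-05, limma). In each of these genes the ΔU libraries lay below both BY4741 libraries. That was so for 90 of the 137 members and for 1010 of all 5840 features.

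The 3 members that rose in ΔU were minor copies of their pairs. RPL15B stood at 69.4, 78.6 and 74.7 RPM in ΔU against 51.6 and 57.4 RPM in BY4741 (0.44, SE 0.08, adjusted p = 0.000607, limma), and its call held under all 13 alternatives. RPS9A went from 414 ± 45.4 to 485 ± 21.4 RPM (0.23, adjusted p = 0.0163, limma) and RPL9B from 991 ± 89.0 to 1158 ± 52.9 RPM (0.23, adjusted p = 0.0282, limma). The latter calls depended on the scaling. Rescaling by TMM moves the median of all features in ΔU from 0.15 to 0.02. RPL9B was then at 0.09 (adjusted p = 0.406, limma) and RPS9A at 0.09 (adjusted p = 0.34, limma). With that scaling 105 members were lower and 1 higher, and the share of all features called is not given here.

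The RPL9 and RPS9 pairs stood at another balance in ΔU than elsewhere. RPL9A over RPL9B gave log2 ratios of 0.32, 0.15 and 0.24 in the ΔU libraries, against 1.04 to 1.57 in the other 18. RPS9A over RPS9B gave -2.22, -2.04 and -2.12 in ΔU, against -3.15 to -2.69 in the other 18. For both pairs the ΔU libraries thus lay outside the range of all others. A ratio within a pair does not move with the scaling of a library. These pairs are named because their copies were most unequal or their ratios varied most, so the ratios are a description. Compared directly with ume6Δ, which shares no library with ΔU, RPL9A was higher in ume6Δ by 0.62 (adjusted p = 0.000161, limma) and RPL9B lower by 0.43 on the log2 scale (-0.43, adjusted p = 0.000189, limma).

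The copies of RPL9 differ at 36 of 576 coding bases, and reads over such bases can be told apart. How reads that match both copies were counted is not given. The stretch from coding base 484 to 573 holds 11 of the 36 differing bases, in capitals, and is richer in them than the coding part as a whole. It is read 5′ to 3′ along the coding strand from the R64 reference. RPL9A lies on the minus strand of chromosome VII and RPL9B on the plus strand of chromosome XIV.
RPL9A: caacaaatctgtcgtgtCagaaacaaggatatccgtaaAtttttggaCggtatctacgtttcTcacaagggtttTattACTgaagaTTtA
RPL9B: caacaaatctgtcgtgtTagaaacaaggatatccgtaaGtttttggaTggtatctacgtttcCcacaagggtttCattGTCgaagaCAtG

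Upstream of the coding part the copies are not alike. The windows below run from 250 bases before to 50 after the start codon in R64, at chrVII:228280-228579 on the minus strand for RPL9A and chrXIV:499431-499730 on the plus strand for RPL9B. They are shown because this pair stood apart in ΔU. Capitals mark matches, on either strand, to the Fhl1-like letters GACGCA or the Rap1-like letters CCCANACA.
RPL9A: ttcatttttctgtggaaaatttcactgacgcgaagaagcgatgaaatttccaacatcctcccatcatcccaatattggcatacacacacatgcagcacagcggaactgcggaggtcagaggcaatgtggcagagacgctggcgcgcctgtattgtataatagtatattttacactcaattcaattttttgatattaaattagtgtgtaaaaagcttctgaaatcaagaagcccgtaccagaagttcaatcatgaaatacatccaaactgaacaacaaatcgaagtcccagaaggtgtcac
RPL9B: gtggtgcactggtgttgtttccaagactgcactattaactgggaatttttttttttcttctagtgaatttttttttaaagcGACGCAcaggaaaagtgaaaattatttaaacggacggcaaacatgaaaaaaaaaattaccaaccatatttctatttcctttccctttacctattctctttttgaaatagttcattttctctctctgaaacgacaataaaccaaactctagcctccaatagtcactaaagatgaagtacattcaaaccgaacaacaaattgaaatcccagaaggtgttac
RPL9B holds 1 Fhl1-like match and RPL9A holds none, and neither holds a Rap1-like match. Over all 137 members, 15 windows (10.9%) held GACGCA, against 6.26% of 6020 promoters of protein-coding genes. The Rap1-like letters were in 13 member windows (9.49%) against 2.91% of all, and an Abf1-like motif, TCA and ACG with 6 bases of any kind between them, in 18 (13.1%) against 14.3%. The Ume6-like letters TAGCCGCC were in 0 member windows against 1.16% of all, and the Pho4-like letters CACGTG in 1 member window (0.730%) against 2.91%. Such matches describe letters in a window and not binding. Bases farther than 250 before the start codon were not searched, so an absence holds for the window only.

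In ume6Δ 58 ribosomal protein genes were lower and 6 were higher, and 5 of these 6 were the 5 members that lie on chromosome IX. UME6 encodes a DNA-binding protein that recruits repressors to meiotic and metabolic genes. Against BY4741 of series 2, 58 of 137 members fell and 6 rose, where 11.3% of all features were lower and 23.1% were higher. The median log2 difference was -0.23 for the members and 0.04 for all features. The ΔU and ume6Δ comparisons share the 2 BY4741 libraries of series 2.

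RPL2B, encoding a large subunit protein near the catalytic centre, rose most. It stood at 5516, 5422 and 5274 RPM in ume6Δ against 3076 and 2903 RPM in BY4741, a log2 difference of 0.85 (SE 0.07, adjusted p = 2.34e-07, limma). RPL40A, 1 of the 2 genes that encode ubiquitin fused to a large subunit protein, stood at 1693, 1526 and 1389 RPM against 868 and 829 RPM (0.85, SE 0.08, adjusted p = 1.59e-06, limma). RPS24B, a small subunit gene, went from 816 ± 29.9 to 1330 ± 49.5 RPM (0.70, adjusted p = 2.18e-06, limma). RPL16A, a large subunit gene, went from 1002 ± 8.73 to 1630 ± 37.5 RPM (0.70, adjusted p = 3.67e-06, limma). RPL34B, also of the large subunit, went from 884 ± 37.8 to 1440 ± 206 RPM (0.69, adjusted p = 0.000188, limma). In all 5 genes the 3 ume6Δ libraries lay above both BY4741 libraries, which was so for 2004 of all 5840 features. With BY4741 of series 1 as the control RPL40A was not called (adjusted p = 0.909, limma). RPL34B and RPL15B, beyond the 4 largest rises, were named after their values were seen.

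These 5 genes are spread along chromosome IX. In R64, RPL40A (YIL148W) lies at chrIX:68708-69528, RPL16A (YIL133C) at chrIX:98527-99416, RPS24B (YIL069C) at chrIX:231553-232369, RPL34B (YIL052C) at chrIX:256226-257063 and RPL2B (YIL018W) at chrIX:316768-317932. The other features of that chromosome were higher in ume6Δ as well. Of 213 tested features on chromosome IX, 209 (98.1%) were called higher and 0 lower, with a median log2 difference of 1.05, while the medians of the other 15 chromosomes lay between 0.01 and 0.09. Features of chromosome IX held 4.83%, 4.84% and 4.84% of all reads in the ume6Δ libraries and 2.39% to 2.54% in the other 18. The 5 members had a median of 0.70, below that of their chromosome, and the 132 members elsewhere had a median of -0.23. In no other comparison with BY4741 were the members of chromosome IX called higher. The number of copies of chromosome IX was not measured, and its part in these values was not tested.

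**Figure D2:**
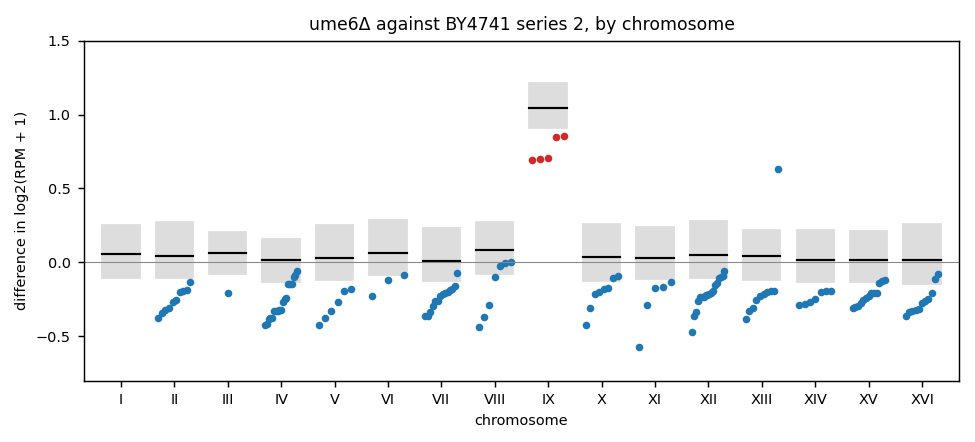
Difference in log2(RPM + 1) between ume6Δ (n = 3) and BY4741 of series 2 (n = 2) by chromosome; grey boxes span the middle of all tested features from the lower to the upper quartile, black bars are their medians and points are ribosomal protein genes. Chromosome IX has a median of 1.05 and its 5 members, in red, lie at 0.69 to 0.85, while members elsewhere lie mostly below 0.

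The sixth member that rose in ume6Δ was RPL15B, on chromosome XIII, the minor copy of the gene of a large subunit protein. It stood at 90.6, 80.1 and 84.0 RPM in ume6Δ against 51.6 and 57.4 RPM in BY4741 (0.63, SE 0.08, adjusted p = 2.85e-05, limma). RPL15A, the major copy, stood at 3687, 3258 and 3303 RPM against 3865 and 4186 RPM. The log2 ratio of RPL15A to RPL15B was 5.33, 5.33 and 5.28 in ume6Δ, 5.84, 5.33 and 5.48 in ΔU, and 6.12 to 6.27 in BY4741, pho4Δ and pho84Δ of the same series. In series 1 it was 5.42 to 5.81 in all 9 libraries, so the level of this ratio in BY4741 differed between series. RPL15B thus rose against its control in both ΔU and ume6Δ, which share that control.

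The largest falls in ume6Δ were those of RPS21A, RPS28B, RPL14B and RPL23B. RPS21A, a small subunit gene, fell from 888 ± 94.5 to 599 ± 89.5 RPM (-0.57, adjusted p = 0.0028, limma), and RPS28B fell from 1274 ± 51.2 to 919 ± 43.3 RPM (-0.47, adjusted p = 0.000318, limma), a call that BY4741 of series 1 as the control ended (adjusted p = 0.933, limma). RPL14B, a large subunit gene, fell from 659 ± 125 to 483 ± 22.1 RPM (-0.44, adjusted p = 0.00259, limma) and lost its call without BY4741 number 5 (highest adjusted p = 0.062, limma). RPL23B, of the large subunit, fell from 1242 ± 148 to 926 ± 93.9 RPM (-0.42, adjusted p = 0.0205, limma), and was not called without BY4741 number 5, without ume6Δ number 2 or without ume6Δ number 3 (highest adjusted p = 0.202, limma). The count of falls was less firm than that of rises. Leaving out BY4741 number 4 gave 34 falls, BY4741 number 5 gave 20, ume6Δ number 2 gave 29 and ume6Δ number 3 gave 26, while ume6Δ number 1 gave 79, and each gave 6 rises. With chromosome IX left out and RPM recomputed over the other reads, 37 members fell and 1 rose among 132, an alternative chosen after seeing the data. The shares of all features called in these alternative fits are not given here.

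The pairs with a copy on chromosome IX stood at another ratio in ume6Δ. RPL2A over RPL2B gave log2 ratios of -1.71, -1.71 and -1.67 there and -0.73 to -0.57 in the other 18 libraries. RPS24A over RPS24B gave 0.02, -0.08 and -0.17 there and 0.74 to 1.33 elsewhere. RPL40A over RPL40B gave 0.58, 0.48 and 0.41, against -0.64 to 0.21 elsewhere. The group means moved from -0.94 in BY4741 of series 2 to -0.05 in ume6Δ for RPL16, and from -0.44 to -1.31 for RPL34. In these pairs the copy on chromosome IX gained on its partner, and for all 5 pairs the ume6Δ libraries lay outside the range of the other 18. The encoded proteins of the RPL2, RPS24 and RPL40 copies are identical in R64.

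The copies of RPL2 differ at 28 of 765 coding bases without a change in protein. The stretch from coding base 647 to 736, read 5′ to 3′ along the coding strand, holds 7 of these, printed in capitals. It is shown because reads over such bases separate the copy on chromosome IX, RPL2B, from RPL2A on the minus strand of chromosome VI.
RPL2A: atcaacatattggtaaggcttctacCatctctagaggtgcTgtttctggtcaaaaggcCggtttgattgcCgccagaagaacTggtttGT
RPL2B: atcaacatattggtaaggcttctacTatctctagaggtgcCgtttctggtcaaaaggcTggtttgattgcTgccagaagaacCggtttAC

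**Figure D3:**
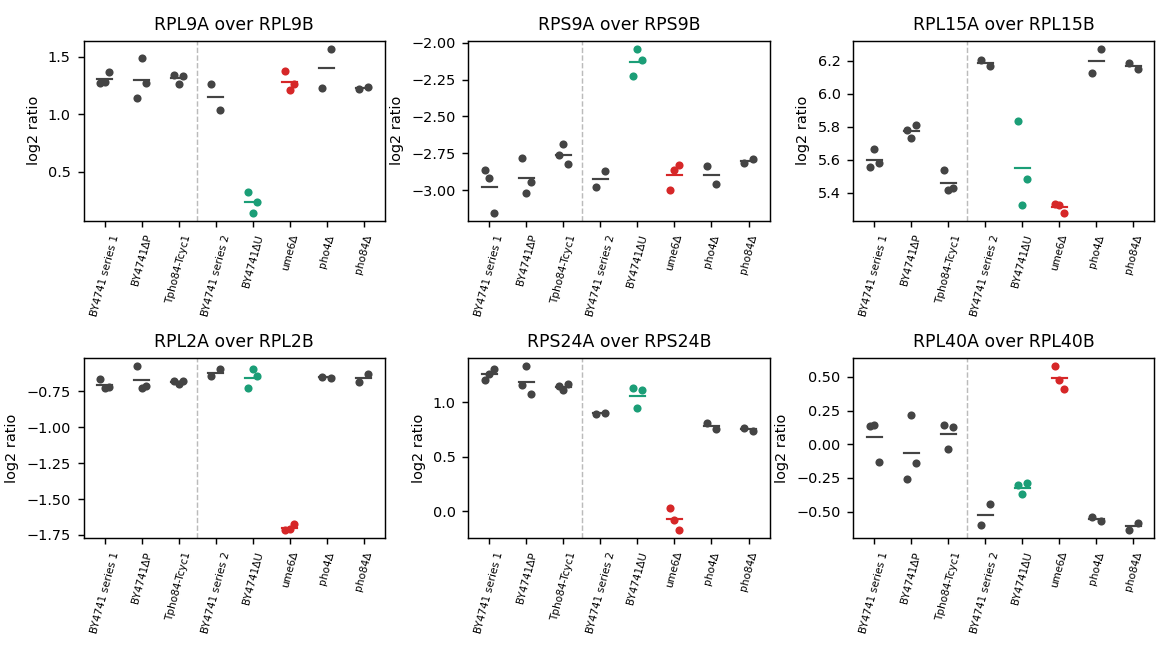
Log2 ratio of the A copy to the B copy, from RPM + 1, for 6 pairs in each library; points are libraries, bars are group means, green marks ΔU, red marks ume6Δ and the dashed line separates the 2 series. RPL9 and RPS9 stand apart in ΔU (group means 0.24 and -2.13), RPL2, RPS24 and RPL40 stand apart in ume6Δ (-1.70, -0.08 and 0.49), and RPL15 is lower in both than in BY4741 of series 2 (5.55 and 5.31 against 6.18).

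Set directly against ΔU, ume6Δ had 25 members higher and 3 lower, where 20.1% of all features were higher and 28.7% lower. The 5 members of chromosome IX led, with RPS24B at 1.16, RPL2B at 1.12, RPL34B at 1.09, RPL16A at 0.97 and RPL40A at 0.97 on the log2 scale, and the chromosome's own median was 0.86. Of the 132 other members, 20 were higher and 3 lower, and with chromosome IX left out and RPM recomputed 31 were higher and 2 lower. The members that were lower were RPS9A (-0.55, adjusted p = 8.22e-06, limma), RPL9B (-0.43) and RPL22B, the minor copy of a large subunit gene (-0.19, adjusted p = 0.0218, limma). The RPL22B call was lost in 8 of 15 alternatives (highest adjusted p = 0.226, limma). After TMM 44 members were higher and 2 lower, and without ΔU number 1 there were 47 higher and 2 lower. For these fits and the one without chromosome IX, the shares of all features called are not given here.

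In ΔP the ribosomal protein genes lay below BY4741 of series 1 in 2 of 3 libraries. In the test of 5775 features only RPL7B, a large subunit gene, was called lower, where 3.67% of all features were lower and 5.8% higher. RPL7B stood at 292, 331 and 296 RPM against 418, 399 and 361 RPM (-0.36, SE 0.09, adjusted p = 0.0304, limma), and 7 of 15 alternatives ended that call (highest adjusted p = 0.137, limma), among them leaving out any of the 3 BY4741 libraries or ΔP number 1 or 3. The median of the members was -0.16 and that of all features 0.06, with 121 of 137 negative. Without ΔP number 2, 76 members were lower, and the share of all features called in that fit is not given here. ΔP number 2 differed from numbers 1 and 3 by a chi-square per degree of freedom of 66.6 and 86.2, against 29 between those 2. ΔP number 2 also held 2899 RPM in 24 stress genes, against 3762 and 3850 RPM in ΔP numbers 1 and 3, and 383 RPM in RNAs without a poly(A) tail against 255 and 284 RPM. Whether these differences bear on the ribosomal protein values was not tested.

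Tpho84-Tcyc1 gave 0 called members, and 0 at an unadjusted p under 0.05 by limma. Of all features 4.42% were called higher and 3.55% lower, and 23.8% had an unadjusted p under 0.05. DESeq2 and edgeR on the recovered reads also gave 0. The median was -0.08 against 0.06 for all features, 120 of 137 differences were negative, and 29 members had libraries wholly below those of BY4741, where 12.8% of all features did. The error of each gene in the main fit is drawn from all 3 groups of series 1, ΔP included. The members' summed share varied most in ΔP (SD 3.74% of reads, against 0.329% in BY4741 and 0.678% in Tpho84-Tcyc1). With only Tpho84-Tcyc1 and BY4741 in the fit 4 members were lower, and with the replicate number as a block 7 were. The shares of all features called in these fits are not given here. Against ΔP, 0 members were called (5 at an unadjusted p under 0.05, limma), where 0.0693% of all features were higher, 0.242% lower and 8.88% under the unadjusted threshold, and edgeR and DESeq2 gave 0. Without ΔP number 2, 27 members were higher than in ΔP, again without a share over all features.

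In pho84Δ, the strain without the high-affinity phosphate transporter, 0 members were called by limma, edgeR or DESeq2, where 0.274% of all features were higher and 0.0171% lower. The median was nonetheless -0.20, against 0.02 for all features, and 57 members had an unadjusted p under 0.05 by limma, as had 11.7% of all features. Without BY4741 number 4, 2 members were lower. In 106 of the 137 members both pho84Δ libraries lay below both BY4741 libraries, which was so for 18% of all features. The members with coding parts under 300 bases had a median of -0.46 there, and those of 600 bases or more -0.06. In ΔU, against the same control, the order was the opposite, at -0.13 and -0.34. In pho4Δ, which lacks the activator of phosphate-responsive genes, 0 members were called by each of these tools (2 at an unadjusted p under 0.05 by limma), where 0.0514% of all features were higher, 0.171% lower and 11.4% under the unadjusted threshold, and the median was -0.06. In 42 members both pho4Δ libraries lay below both BY4741 libraries, which was so for 17.1% of all features. Groups of 2 libraries limit both comparisons.

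**Figure D4:**
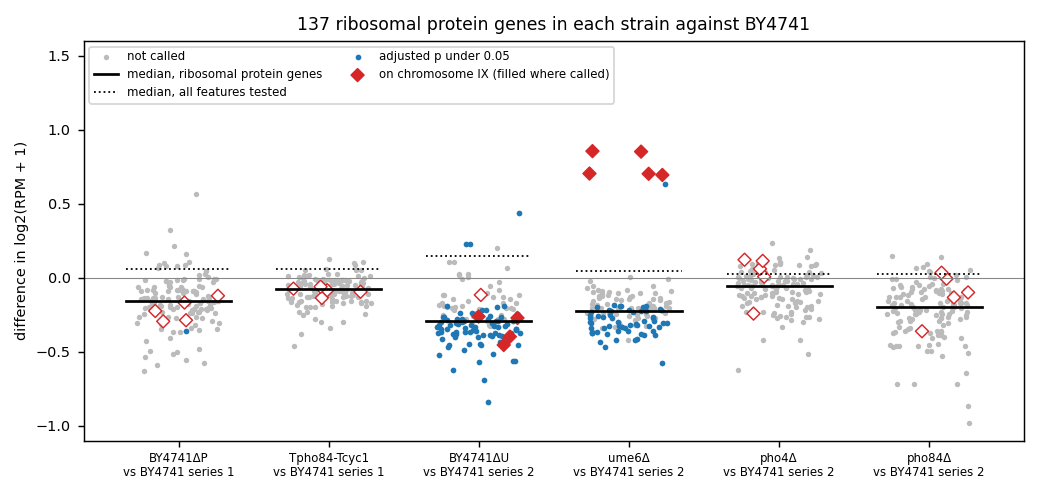
Difference in log2(RPM + 1) of the 137 ribosomal protein genes in each strain against BY4741 of its series; each point is a gene, blue and filled red points passed an adjusted p of 0.05 in limma, diamonds are the 5 genes on chromosome IX, and bars give the medians of the members (solid) and of all tested features (dotted). The members' median lies below that of all features in all 6 comparisons, from -0.06 in pho4Δ to -0.29 in ΔU, and the chromosome IX genes stand above the rest in ume6Δ.

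Among the stalk genes, RPP0 encodes the scaffold on which the acidic P proteins sit. It stood at 3022, 2876 and 2792 RPM in ΔU against 3593 and 3381 RPM in BY4741 and was the stalk member called lower there (-0.27, adjusted p = 0.00505, limma). RPP1A stood at 1567, 1115 and 1264 RPM in ΔU and 1387 and 1617 RPM in BY4741, so that these groups overlapped. In ume6Δ the called stalk member was RPP1B, at 579, 500.2 and 457 RPM against 580 and 764 RPM (-0.39, adjusted p = 0.0214, limma), without overlap. In series 1 the P protein genes followed the split within ΔP: RPP2B stood at 1574, 2852 and 1398 RPM in ΔP and at 2921, 2617 and 2409 RPM in BY4741. RPP1B stood at 748, 1220 and 633 RPM in ΔP against 1263, 1060 and 1005 RPM, and RPP2A at 1466, 2377 and 1413 RPM against 1949, 1912 and 2144 RPM. In all 3 genes ΔP number 2 lay within or above the range of BY4741, and the other ΔP libraries lay below it. The ubiquitin fusion gene RPS31 showed the same split, at 4981, 9341 and 5519 RPM in ΔP against 7261, 6858 and 7497 RPM.

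Copies of a pair were often unequal. The A copy was higher on average in 33 of 57 pairs, and 25 pairs had a mean absolute log2 ratio above 1. In 45 pairs the same copy was higher in all 21 libraries. RPL15 was the most unequal, with RPL15A giving 98.2% of the pair's reads. RPL22A gave 91.4% and RPS14A 89.2% of theirs, RPS9A gave 12.7% and RPS22A gave 86.7%. By mean absolute log2 ratio over the libraries, the most equal were RPL24 (52.1% from the A copy), RPS23 (49.7%) and RPS18 (53.0%). Coding identity was 95% or more in 20 pairs and the encoded protein was identical in 21, so reads of such pairs may have been split or dropped in counting. Most pairs held their balance: the group means of the log2 ratio ranged over less than 0.5 in 33 pairs, with a median range of 0.40.

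The pairs with the widest ranges were RPS28 (1.84), RPS24 (1.33), RPL9 (1.16), RPS30 (1.15) and RPS27 (1.11). RPS28A over RPS28B varied even within groups, from 0.43 to -1.12 among the 3 BY4741 libraries of series 1. It was -0.83, -0.70 and -2.04 in ΔP, and -2.05 and -1.37 in BY4741 of series 2. RPS30 and RPS27 separated mainly by series: RPS30A over RPS30B was 1.35 to 2.34 in series 1 and 2.45 to 3.03 in series 2, without overlap. RPS27A over RPS27B was -0.32 to 0.71 in series 1 and 0.38 to 1.18 in series 2, with overlap.

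Of 22 regulators of these genes, 4 were higher and 5 lower in ΔU, and also 4 and 5 in ume6Δ. That is 18.2% higher and 22.7% lower, against 36.5% and 13.2% of all features in ΔU and 23.1% and 11.3% in ume6Δ. UTP22, part of a complex that ties ribosomal protein genes to rRNA processing, fell in ΔU (-0.41, adjusted p = 0.000319, limma) and in ume6Δ (-0.21, adjusted p = 0.0358). RRP7 (-0.28), CKA2 (-0.18), SCH9, a kinase that promotes ribosome synthesis (-0.32), and TOD6, a repressor of ribosome biogenesis genes (-0.54), were also lower in ΔU. HMO1, a chromatin protein at many ribosomal protein promoters, fell in ume6Δ (-0.51, adjusted p = 8.92e-06, limma), as did CKB2 (-0.31), IFH1, the coactivator (-0.28), and FHL1 (-0.21). Higher in both were CRF1, a corepressor (0.42 in ΔU and 0.61 in ume6Δ), STB3 (0.27 and 0.31) and DOT6 (0.30 and 0.53), both repressors, while ESA1, an acetyltransferase, was higher in ΔU (0.28). CKA1, a kinase subunit, was higher in ume6Δ (0.91) and, as YIL035C, lies on chromosome IX. In series 1 TOD6 was the regulator called, lower in ΔP (-0.92, adjusted p = 0.00757, limma) and in Tpho84-Tcyc1 (-0.98, adjusted p = 0.00459), which share their control.

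Set directly against ΔU, ume6Δ had 4 of the 22 regulators higher (18.2%) and 4 lower (18.2%), against 20.1% and 28.7% of all features. HMO1 (-0.47), CKB2 (-0.23), RPD3, a histone deacetylase (-0.21), and CKB1 (-0.15) were lower in ume6Δ. UTP22 (0.21), RAP1 (0.21), TOD6 (0.49) and CKA1 (0.94) were higher there.

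Ribosome biogenesis genes were lower in ΔU, ume6Δ, ΔP and Tpho84-Tcyc1, and translation genes mainly in ΔU and ume6Δ. Chaperones were called lower in a larger share than all features in each of these strains, though by only 2 genes in ΔP. Lower calls over all features made up 13.2% in ΔU, 11.3% in ume6Δ, 3.67% in ΔP and 3.55% in Tpho84-Tcyc1. Of 34 tested ribosome biogenesis genes, 32 fell in ΔU, 26 in ume6Δ, 18 in ΔP and 14 in Tpho84-Tcyc1, with 0 higher in each. In pho4Δ 1 was called higher and 33 of the 34 differences were positive (median 0.20), where 0.0514% of all features were called higher. DBP2, an RNA helicase, fell in ΔU (-0.79) and in ΔP (-1.12), and NSR1, a nucleolar protein, in ume6Δ (-0.66) and ΔP (-0.88). Of 20 chaperones and import factors, 15 fell and 1 rose in ΔU, and 13 fell and 1 rose in ume6Δ, while 2 fell in ΔP and 4 in Tpho84-Tcyc1. In ΔP and in Tpho84-Tcyc1, 16 of these 20 differences were negative (medians -0.17 and -0.21). SSB1, a ribosome-bound chaperone, fell in ΔU (-0.65). The 1 that rose in ume6Δ was SQT1, the chaperone of the RPL10 protein (0.94), which as YIR012W also lies on chromosome IX. Of 29 translation genes 25 fell in ΔU and 20 in ume6Δ, and 0 were called in ΔP (median -0.01) and in Tpho84-Tcyc1 (median -0.06) by limma. At an unadjusted p under 0.05 by limma stood 5 of them in ΔP and 1 in Tpho84-Tcyc1. Of all 5775 features 1646 and 1375 did so. TEF4, an elongation factor subunit, fell in ΔU (-0.80). Of 24 stress genes 21 rose in ΔU, 11 in ume6Δ, 12 in ΔP and 18 in Tpho84-Tcyc1, where 36.5%, 23.1%, 5.8% and 4.42% of all features were higher. GSY1, a glycogen synthase gene, fell in ΔU (-0.62) and ume6Δ (-0.40). In pho4Δ 0 stress genes were called by limma, where 0.0514% of all features were higher and 0.171% lower. There 13 of the 24 had an unadjusted p under 0.05 by limma, as had 11.4% of all features, and 20 differences were negative (median -0.31). In pho84Δ 2 of the 24 (8.33%) were called higher and 0 lower, where 0.274% of all features were higher. There 17 differences were positive and 7 negative (median 0.08), and the largest was 2.42. Among the 24 stress genes HSP12 rose most in ΔU (2.65) and ume6Δ (2.20). So in Tpho84-Tcyc1 and ΔP biogenesis genes fell where the ribosomal protein genes gave 0 and 1 calls. Most differences of the ribosomal protein genes were nonetheless negative there, 120 and 121 of 137 (medians -0.08 and -0.16). The count of calls in ΔP also depended on its library 2, so few calls do not show that these genes were unchanged.

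Between the BY4741 groups of the 2 series the short members differed most, as the plot of the ratio against coding length shows. Pair ratios and control changes set across series are to be read beside these values.

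**Figure D5:**
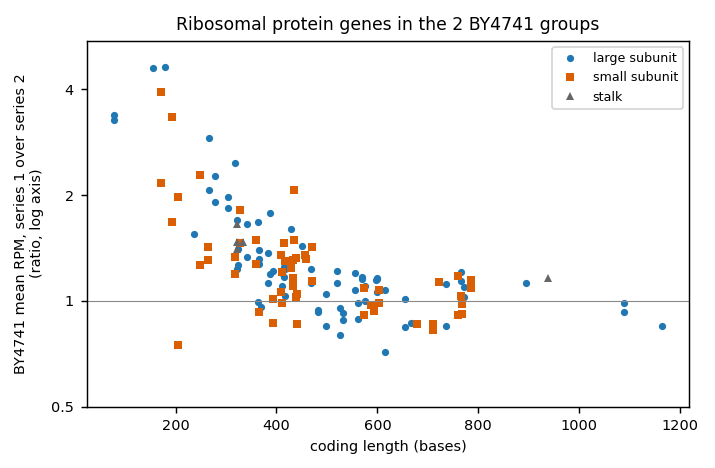
Ratio of mean RPM in BY4741 of series 1 (n = 3) to that of series 2 (n = 2) against coding length in bases for the 137 ribosomal protein genes; the ratio is on a log axis and symbols give the subunit. The median ratio is 3.35 under 200 bases and 1.03 at 600 bases or more.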

How the data were processed

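RNA was prepared with a yeast kit and sequenced with a stranded kit on purified mRNA, per the labels' protocols. The submitters' processing notes name HISAT2, featureCounts and edgeR; versions, settings, genome build and strand setting are not given in the sources used here, so sense and antisense reads cannot be told apart. The authors deposited RPM per feature, reads per 1000000 reads of a library, for 7127 lines, of which 7123 had values; columns fell 110 to 163 RPM short of the full total. Dividing by the RPM of 1 read (0.0201 to 0.0911) gave whole reads, within 0.01, for 100% of values.

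Members and gene lists were chosen with earlier results of these data known. Each series was fitted by itself with limma 3.58.1 (R 4.3.3) on log2(RPM + 1), 1 mean per group and variances that follow the mean. Features with at least 1 RPM in at least 3 libraries (series 1) or 2 (series 2) were tested, and p-values adjusted by Benjamini-Hochberg over all of them; adjusted p under 0.05 was called, and "rose" or "fell" is used only of calls. Adding 1 RPM understates changes of low genes. Errors after ± are SDs between libraries. Alternatives were TMM and median-of-ratios scaling, a pseudocount of 0.1 RPM, no filter, edgeR 4.0.16 and DESeq2 1.42.0 on the recovered reads, fewer libraries, a replicate block and the BY4741 of the other series. The limma step was tested on simulated data. Libraries of a group differed beyond sampling noise (chi-square per degree of freedom 5.22 or more), so each counted as 1 replicate.

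Coordinates, coding lengths, introns, promoters and sequences are from the RefSeq R64 reference, in which all 137 members matched by symbol and identifier; the files give no coordinates. Genes named are, per comparison, the 4 largest called rises and falls, the 5 highest and 5 lowest members, the 5 most unequal and 3 most equal pairs by mean absolute log2 ratio, the 5 pairs with the widest range of group means, the stalk and ubiquitin fusion genes, called regulators and up to 4 genes of each other list; a result that this rule names is not reported here.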

Additional observations from a re-analysis of the deposited data

How the results depend on the processing

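Over counts, medians, summed shares and pair ratios, 233 alternative values stayed within 1.5 times the count or within 1 SD and 42 did not. Of the named members' alternatives 279 kept the call, 36 lost it and 0 reversed. The cause of the changes below was not tested except where the construction gives it. Counts under these alternatives are of members only, without the shares of all features called in the same fits. For ΔP, DESeq2 called 5 members, the fit of only these groups 0, the replicate block 1 (a rise, not RPL7B), and leaving out 1 library 0 to 76. For Tpho84-Tcyc1 the fit of only these groups called 4 and the replicate block 7, and leaving out 1 library 0; against ΔP, leaving out 1 library gave 0 to 27. For ume6Δ against BY4741 leaving out 1 library gave 26 to 85, and leaving out chromosome IX, which removes 5 members, 38. For ume6Δ against ΔU, TMM gave 46, median of ratios 44, edgeR 44 and DESeq2 47, the replicate block 35, and leaving out 1 library 22 to 49. Leaving out 1 library gave 61 to 100 for ΔU against BY4741, 0 to 2 for pho84Δ and 0 for pho4Δ. On the recovered reads edgeR called 105 members in ΔU and 72 in ume6Δ against BY4741. With the BY4741 of the other series as the control the counts were 34 (ΔP), 46 (Tpho84-Tcyc1), 108 (ume6Δ), 65 (pho4Δ) and 87 (pho84Δ), and the medians 0.11 (ΔP), 0.15 (Tpho84-Tcyc1), -0.54 (ΔU), -0.46 (ume6Δ), -0.25 (pho4Δ) and -0.37 (pho84Δ). Under TMM, median of ratios, edgeR and DESeq2 the median was -0.14 each in Tpho84-Tcyc1 and -0.43, -0.42, -0.42 and -0.42 in ΔU. The summed share relative to BY4741, as a log2 ratio, went under TMM over all libraries from -0.07 to -0.12 in Tpho84-Tcyc1, from -0.31 to -0.45 in ΔU and from -0.16 to -0.19 in pho84Δ, and leaving out 1 library gave -0.25 to -0.02 in ΔP, -0.09 to -0.05 in Tpho84-Tcyc1, -0.39 to -0.26 in ΔU, -0.24 to -0.14 in ume6Δ and -0.17 to -0.15 in pho84Δ.

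Same-numbered libraries did not deviate together throughout (correlations of -0.23 to 0.28 in series 1 and -0.19 to 0.16 in series 2). Differently numbered libraries of series 1 gave -0.349 to 0.215. With 2 or 3 libraries in a group such correlations cannot decide whether the replicate numbers pair the samples. No paired analysis was possible against BY4741 of series 2 because its numbers, 4 and 5, are not shared. Where leaving out a library leaves 1 in a group, that library is assumed to vary like the others. Groups of 2 or 3 libraries limit these comparisons, and the lowest value of any member was 46.3 RPM.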

Other observations

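The 2 BY4741 groups, which the design does not compare, differed at the short ribosomal protein genes. Series 1 over series 2 mean RPM had a median ratio of 3.35 over the 8 members with a coding part under 200 bases and 1.92 over the 11 of 200 to under 300 bases. It was 1.37 over 33 members of 300 to under 400 bases, 1.12 over 53 of 400 to under 600 bases and 1.03 over 32 of 600 bases or more. RPL39, a short large subunit gene chosen after its values were seen, had 948 ± 285 RPM in the 3 libraries of series 1 and 207 ± 8.84 RPM in the 2 of series 2. RPS29A stood at 269 ± 109 RPM in series 1 and 68.3 ± 10.6 RPM in series 2. Other genes showed a like order, with medians of 1.54, 1.41, 1.26, 1.12 and 0.97 over the same length classes. In a fit of all 21 libraries 50 members were lower and 5 higher in BY4741 of series 2 (limma, adjusted p under 0.05). Of the 5927 features tested in that fit, 1120 were lower and 1076 higher. The median log2 difference was -0.22 for the members and -0.01 for all features. Series, culture and library preparation cannot be told apart here.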
